A study of Mus musculus with 9 samples.

Results

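The vacuolar-type proton pump (V-ATPase) was examined through 10 of its subunit genes in Arf1-deficient and control N2a cells. They were picked by name, with earlier results of these data known, and found at 10 of the 21899 genes listed in the expression table. They are 4 genes of the membrane sector V0 (Atp6v0a1, Atp6v0b, Atp6v0c and Atp6v0d1), the accessory subunit gene Atp6ap1, and 5 genes of the cytosolic sector V1 (Atp6v1a, Atp6v1b2, Atp6v1d, Atp6v1e1 and Atp6v1h). N2a (Neuro-2a) is a mouse neuroblastoma line, and bulk RNA-seq was made from cells carrying a short hairpin RNA against luciferase (shlucif, the control) or either of 2 hairpins against Arf1 (shArf1-1 and shArf1-2). In the expression table the columns taken as shArf1-2 are headed shArf2, and they were read as the second Arf1 hairpin because the sample titles name no other. Each group had 3 libraries and no further treatment, so that 6 Arf1-deficient libraries stood against 3 control libraries. Arf1 is a small GTPase that recruits coat proteins to the Golgi and to endosomes. The 3 groups share the cell line and the use of a hairpin, and the labels do not say whether libraries of a group came from separate cultures, so the spread between them may be technical.

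The V-ATPase is a rotary machine. V1 hydrolyses ATP and turns a central stalk, which drives a ring of proteolipid subunits in V0 and carries protons across the membrane. It acidifies lysosomes, endosomes, the Golgi and synaptic vesicles, where the proton gradient also powers the loading of neurotransmitter. The pump on the lysosome is one of the sites through which amino acids control mTORC1, and many of its genes are known targets of TFEB, a transcription factor of lysosome biogenesis that binds E-box motifs.

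The hairpin targets are shown because they define the groups. Each is 21 bases long, is given as the sense strand and lies in the coding sequence of Arf1 in the GENCODE M21 annotation of GRCm38.
shArf1-1: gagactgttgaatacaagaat
shArf1-2: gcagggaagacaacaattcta
Neither was found in the transcript of a V-ATPase gene. Arf1 itself was lower in all 6 Arf1-deficient libraries, at 127 to 130.3 FPKM (the authors' read count scaled by gene length and library total) with shArf1-1 and 157 to 171 with shArf1-2, against 316 to 328 with shlucif. The log2 fold change was −1.39 ± 0.05 (SE) with shArf1-1 and −1.05 ± 0.05 with shArf1-2, and the hairpins differed by 0.34 ± 0.05 (adjusted p = 1.16e-05). Total counts ran from 11182479 to 15594615 per library, and 12448 genes were tested.

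In GRCm38 the V0 genes lie on chromosome 11 from 101009452 to 101063719 (Atp6v0a1, plus strand), chromosome 4 from 117884326 to 117887333 (Atp6v0b, minus strand), chromosome 17 from 24163866 to 24169702 (Atp6v0c, minus strand) and chromosome 8 from 105524465 to 105566047 (Atp6v0d1, minus strand). Atp6ap1 lies on the plus strand of chromosome X from 74297097 to 74304721. The V1 genes lie on chromosome 16 from 44085402 to 44139705 (Atp6v1a, minus strand), chromosome 8 from 69088646 to 69113711 (Atp6v1b2, plus strand), chromosome 12 from 78840725 to 78861638 (Atp6v1d, minus strand), chromosome 6 from 120794305 to 120822793 (Atp6v1e1, minus strand) and chromosome 1 from 5070018 to 5162529 (Atp6v1h, plus strand). The 10 genes are thus spread over 9 chromosomes. Exons of 3 of them share bases with a gene on the opposite strand. These are 243 bases of Atp6v0b with the antisense gene Gm12841, 127 bases of Atp6v1h with Rgs20 and 32 bases of Atp6v1e1 with Slc25a18. Rgs20 had 3 to 18 counts and Slc25a18 0 to 3 counts per library, and Gm12841 has no row in the table. Atp6v0c has 2 pseudogenes named after it in the annotation, neither with a row, so its count may hold reads that could be placed elsewhere.

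Promoters were read from RefSeq on GRCm38.p6, from 250 bases before to 50 after the gene's start, and 8 of the 10 genes had an entry. The palindromic E-box CACGTG, which reads the same on either strand, was found in 3 of these 8 genes. Of all 27025 genes with a promoter entry 8.09% held it. It is shown here in capitals within 30 bases, because the E-box is the kind of motif that TFEB binds.
Atp6v0b (chr4:117887339-117887368, minus strand): ggtCACGTGgggtcggcgcatCACGTGcgc
Atp6v0d1 (chr8:105566050-105566079, minus strand): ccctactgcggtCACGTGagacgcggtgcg
Atp6v1a (chr16:44139373-44139402, minus strand): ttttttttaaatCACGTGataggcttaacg
The Atp6v0b promoter held the motif 2 times, starting 36 and 18 bases before the RefSeq start. In Atp6v0d1 it began 3 bases and in Atp6v1a 131 bases before the RefSeq start, in both as part of the longer motif TCACGTGA, which 1.12% of all genes with an entry held. These starts are not the ends of the GENCODE genes given above. The RefSeq start lies 4 bases inside the gene for Atp6v0b, 17 bases outside it for Atp6v0d1 and 446 bases inside it for Atp6v1a, so that the Atp6v1a motif falls within the GENCODE gene. All 3 of these genes that held the E-box were lower. Of those searched that did not hold it, Atp6v0c, Atp6ap1, Atp6v1d and Atp6v1e1 were lower too, and Atp6v0a1 was not. A link between the motif and the falls was not tested. Among the other V-ATPase subunit genes searched, Atp6v0e alone held the motif, at a RefSeq start 13165 bases inside its GENCODE gene, and it was higher. Of the 20 listed lysosome genes with a promoter entry 10 held it. A match of letters is a description and not a binding site.

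Transcripts of most of these genes made up a smaller share of the Arf1-deficient libraries. Of the 10, 9 were lower than in shlucif cells (adjusted p under 0.05, quasi-likelihood test of edgeR, Benjamini-Hochberg adjusted over all tested genes), none was higher, and the neuronal a-subunit gene Atp6v0a1 did not pass the test. Over all genes tested, 32.9% were called lower and 31.6% higher, so a called change in itself was common in this comparison. The median log2 fold change of the 10 genes was −0.41, beside 0.00 over all tested genes, and the levels of the 9 called genes changed by −10.8% to −36.4%. On the scale of TMM-scaled CPM (counts over a library total corrected by trimmed mean of M-values) these 9 lay below every control library in all 6 Arf1-deficient libraries, a pattern that 30.1% of all tested genes showed. Summed over the 10 genes, the TMM-scaled CPM was 1951, 1848 and 1930 with shlucif, 1530, 1499 and 1509 with shArf1-1, and 1510, 1468 and 1475 with shArf1-2.

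Other markers moved with the groups too. The 20 listed macrophage and microglia genes summed to 296 to 362 TMM-scaled CPM in shlucif libraries and to 5.42 to 8.50 in Arf1-deficient libraries. Of the 16 of them tested, 15 were lower and 1, Tmem119, was higher, beside 32.9% and 31.6% over all tested genes. Tmem119 carried most of the sum in Arf1-deficient libraries, with 47 to 101 counts against 14 to 29 for the other 19 genes together, which summed to 1.19 to 2.02 TMM-scaled CPM there and to 294 to 360 with shlucif. The lysozyme gene Lyz2 averaged 63.7 FPKM with shlucif, 0.198 with shArf1-1 and 0.436 with shArf1-2, and Cd68, a lysosomal glycoprotein of macrophages, averaged 55.3, 0.304 and 0.226 FPKM. Laptm5 (7.33 FPKM with shlucif) and Trem2 (4.05 FPKM) were under 0.1 FPKM with either hairpin. The defining markers Itgam (26 to 32 counts with shlucif), C1qb (16 to 32), C1qc (11 to 22) and Spi1 (138 to 162) had 0 counts in all 6 Arf1-deficient libraries. Aif1, C1qa, Cx3cr1 and P2ry12 also had 0 there, but at most 5 counts in a control library, and were not tested. The part of these transcripts in the V-ATPase differences was not tested, and in bulk RNA fewer cells of a type and less RNA per cell cannot be told apart. Genes with at least 20 counts in each control library and at most 3 in any other numbered 185, and they held 0.129% to 0.151% of the control libraries' counts. That cut leaves out Lyz2 and Cd68, which had up to 10 and 7 counts in an Arf1-deficient library. It also leaves out genes counted in all groups, so this share is not that of all macrophage transcripts.

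Of the 18 listed neuronal and sympathetic neuroblast genes, 15 were tested, and the neurofilament gene Nefm had 0 counts in every library. The 18 genes summed to 2330 to 2383 TMM-scaled CPM with shlucif and 3168 to 3585 with the Arf1 hairpins. Of those tested 12 were higher and 1, the dendritic microtubule gene Map2, was lower, beside 31.6% and 32.9% over all tested genes. Tubb3, a neuronal tubulin, averaged 410.0 FPKM with shlucif against 694 and 695 with the hairpins. Of 7 fibroblast genes the summed TMM-scaled CPM was 14.3 to 16.9 with shlucif and 9.07 to 11.7 with the hairpins. Whether the rise of neuronal transcripts as a share of the libraries had a part in the V-ATPase values was not tested.

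**Figure D1:**
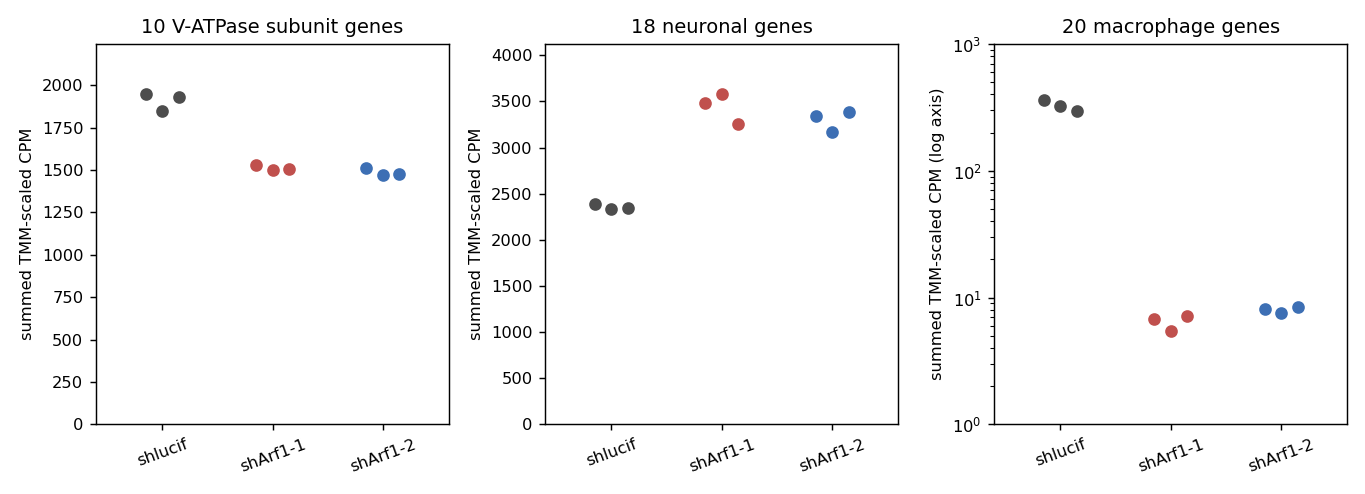
Summed TMM-scaled CPM (y axis) of the 10 V-ATPase subunit genes, of 18 neuronal genes and of 20 macrophage genes, the last on a log axis, with a point for each library by hairpin group (x axis). The V-ATPase sum was 1848 to 1951 in the control libraries and 1468 to 1530 in the other 6, while the macrophage sum was 296 to 362 in the controls and under 10 in the others.

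Among the V0 genes, the proteolipids that form the rotating ring fell. Atp6v0b encodes the c″ proteolipid and had 29.9, 27.0 and 30.2 FPKM with shlucif, 17.7, 17.4 and 18.8 with shArf1-1, and 20.9, 22.3 and 18.7 with shArf1-2. All 6 Arf1-deficient libraries were below all 3 controls. Atp6v0b fell by 36.4% (log2 fold change −0.65 ± 0.08 SE, adjusted p = 7.99e-07), the largest fall in fold among the 10 genes.

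Atp6v0c encodes the c proteolipid, which makes up most of the ring, and measured 37.2, 33.6 and 32.8 FPKM with shlucif. It stood at 26.0, 30.6 and 25.6 FPKM with shArf1-1 and 27.7, 26.4 and 25.4 with shArf1-2. The groups did not overlap, although shArf1-1 replicate 2 came within a few FPKM of the lowest control. Its log2 fold change was −0.42 ± 0.07 (adjusted p = 1.97e-05).

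Atp6v0d1 encodes subunit d, which couples the central stalk to the ring, and was the most abundant of the 10 per length. It had 122, 111 and 127 FPKM with shlucif, 99.4, 98.1 and 94.6 with shArf1-1, and 96.9, 89.7 and 94.4 with shArf1-2. The control libraries varied by more than those of either hairpin, and still none overlapped with them. Atp6v0d1 fell by 23.7% (log2 fold change −0.39 ± 0.06, adjusted p = 6.72e-06).

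Atp6v0a1 encodes a1, the isoform of the proton-channel subunit a that is abundant in neurons and on synaptic vesicles. It measured 40.4, 40.0 and 39.4 FPKM with shlucif, 41.7, 42.7 and 40.1 with shArf1-1, and 43.7, 44.1 and 42.4 with shArf1-2. By FPKM 5 of the 6 Arf1-deficient libraries were above all controls, whereas by TMM-scaled CPM the ranges overlapped for both hairpins (267 to 276 with shlucif, 259.8 to 278 with shArf1-1 and 274 to 282 with shArf1-2). The log2 fold change was 0.02 ± 0.05 (adjusted p = 0.67) with a 95% interval from −0.07 to 0.12. With library totals in place of TMM, shArf1-2 against shlucif passed the threshold at 0.12 (adjusted p = 0.026).

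Atp6ap1 encodes Ac45, the accessory subunit that sits in V0 and takes part in its assembly and sorting. It measured 94.3, 87.2 and 92.6 FPKM with shlucif, 69.3, 68.7 and 66.3 with shArf1-1, and 60.6, 60.3 and 61.8 with shArf1-2. The 3 groups formed 3 separate ranges, lowest with shArf1-2. The log2 fold change of Arf1-deficient against shlucif was −0.57 ± 0.06 (adjusted p = 1.05e-07).

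In V1, the genes of the catalytic head fell together. Atp6v1a, the ATP-hydrolysing subunit A, measured 47.3, 47.1 and 46.3 FPKM with shlucif, 40.5, 37.5 and 40.7 with shArf1-1, and 40.9, 41.1 and 41.0 with shArf1-2. Its libraries were tightly grouped, and the fall was 17.7% (log2 fold change −0.28 ± 0.05, adjusted p = 2.95e-05). Atp6v1b2, the B subunit isoform of brain and most other tissues, measured 63.9, 63.3 and 64.5 FPKM with shlucif, 44.9, 45.9 and 46.7 with shArf1-1, and 46.5, 45.3 and 44.8 with shArf1-2. Here the hairpins gave almost coinciding ranges, far below the controls, and the log2 fold change of −0.55 ± 0.04 had the lowest adjusted p of the 10 genes (2.75e-09). A and B alternate in the same ring of the pump, and their mRNAs fell by 17.7% and 31.6%. The difference between these falls was not tested.

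The stalk genes of V1 fell by different amounts. Atp6v1d, subunit D of the central rotor, measured 24.3, 24.3 and 26.4 FPKM with shlucif, 19.6, 16.3 and 20.8 with shArf1-1, and 19.9, 19.6 and 18.7 with shArf1-2. The fall was present in every library, deepest in shArf1-1 replicate 2, with a log2 fold change of −0.45 ± 0.07 (adjusted p = 1.01e-05). Atp6v1e1, subunit E of the peripheral stalk, measured 21.8, 20.5 and 21.01 FPKM with shlucif, 20.5, 18.5 and 20.7 with shArf1-1, and 19.2, 19.1 and 19.9 with shArf1-2. These FPKM ranges overlapped between shlucif and shArf1-1, while the TMM-scaled CPM did not (85.6 to 93.1 with shlucif and 75.4 to 84.2 in the other 6). Its log2 fold change of −0.17 ± 0.06 was the smallest that passed (adjusted p = 0.023). It did not pass without shlucif replicate 1 (−0.13, adjusted p = 0.109) or without shlucif replicate 3 (−0.17, adjusted p = 0.0609). Nor did it pass with library totals in place of TMM (−0.10, adjusted p = 0.13) or with limma on log2(FPKM + 1) (−0.099, adjusted p = 0.106).

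Atp6v1h, the regulatory subunit H that bridges V1 and V0, was the least abundant of the 10 per length. It measured 9.76, 10.8 and 10.3 FPKM with shlucif, 9.70, 8.73 and 9.67 with shArf1-1, and 9.23, 9.20 and 8.59 with shArf1-2. Libraries of shArf1-1 came close to the lowest control without reaching it. It fell by 14.6%, a log2 fold change of −0.23 ± 0.06 (adjusted p = 0.00254).

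**Figure D2:**
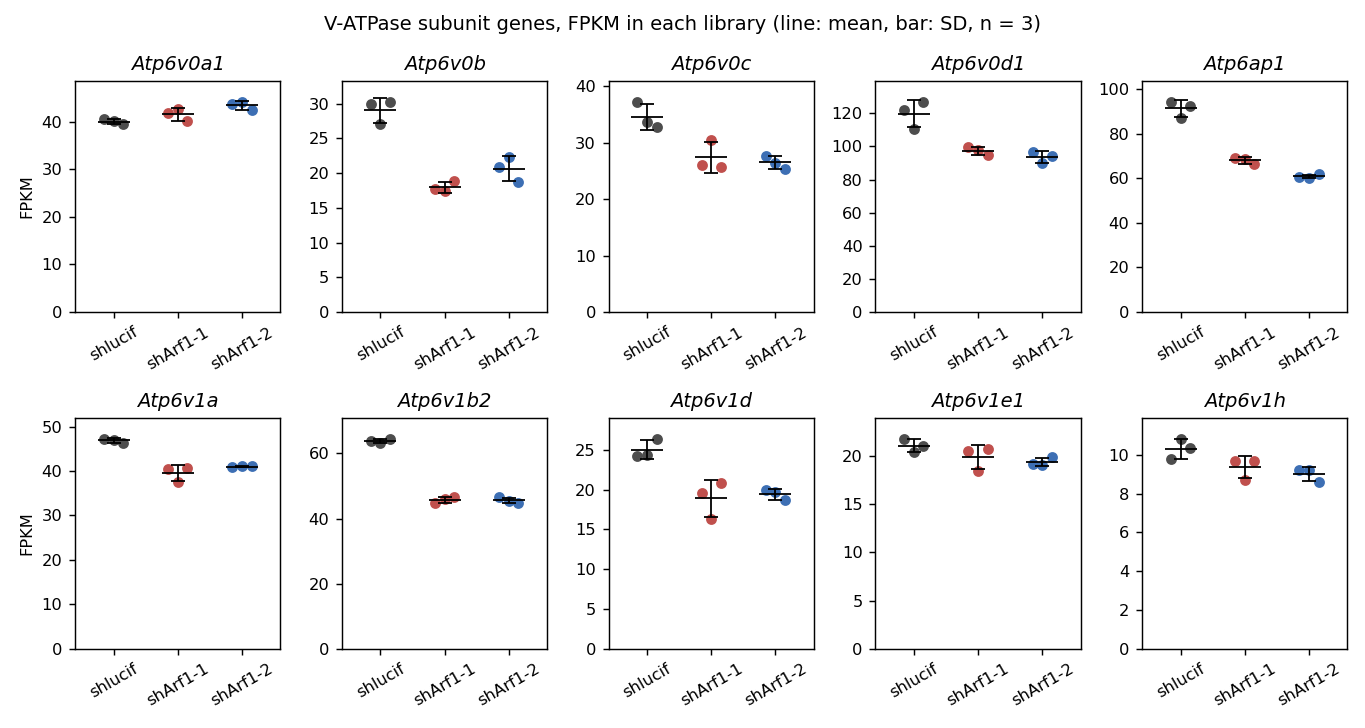
FPKM of the 10 V-ATPase subunit genes (y axes, each from 0) in the 9 libraries by hairpin group (x axis); points are libraries, horizontal lines the mean and bars the SD (n = 3). Every gene but Atp6v0a1 had a lower mean with both Arf1 hairpins, with the Atp6v1e1 ranges of shlucif (20.5 to 21.8) and shArf1-1 (18.5 to 20.7) overlapping.

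Each hairpin was then compared with the same 3 control libraries, so these comparisons are not independent of each other. With shArf1-1, 8 of the 10 genes were lower, where 34.4% of all genes were called lower and 33.1% higher, and the median log2 fold change was −0.37. With shArf1-2, 9 were lower, beside 32.6% of all genes lower and 30.9% higher, and the median was −0.43. The gene that passed with shArf1-2 alone was Atp6v1e1, at −0.14 ± 0.07 (adjusted p = 0.0658) with shArf1-1 and −0.20 ± 0.07 (adjusted p = 0.00931) with shArf1-2, and the difference between those values did not pass (−0.06 ± 0.07, adjusted p = 0.604). These calls of Atp6v1e1 depended on the setting. With shArf1-1 it passed under DESeq2 (adjusted p = 0.0495), relative log expression scaling (0.0432), a minimum of 10 counts in every library (0.0433), without shlucif replicate 2 (0.049) and without shArf1-1 replicate 3 (0.0446). With shArf1-2 it did not pass with library totals (adjusted p = 0.0869) or log2(FPKM + 1) (0.0805). Atp6v0b fell by 40.5% with shArf1-1 and fell by 32.5% with shArf1-2. In Atp6ap1 the order was the other way round, as it fell by 28.2% with shArf1-1 and fell by 36.6% with shArf1-2.

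Between the hairpins themselves, 1 of the 10 genes differed. Atp6ap1 was lower with shArf1-2 than with shArf1-1 by 0.18 ± 0.05 on the log2 scale (log2 fold change −0.18, adjusted p = 0.0184), or 11.7%, with no overlap between the groups. In that comparison 7.46% of all genes were called lower and 6.98% higher. The adjusted p of Atp6ap1 rose to 0.0889 without shArf1-1 replicate 1, to 0.0638 without shArf1-2 replicate 1 and to 0.0781 without shArf1-2 replicate 2. Atp6v0b was 0.18 ± 0.08 higher with shArf1-2 (adjusted p = 0.14), with a 95% interval from 0.02 to 0.35 before adjustment. For the other 8 genes the estimates lay between −0.08 and 0.05 and their 95% intervals all between −0.21 and 0.16, so that a difference of those sizes is not excluded.

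**Figure D3:**
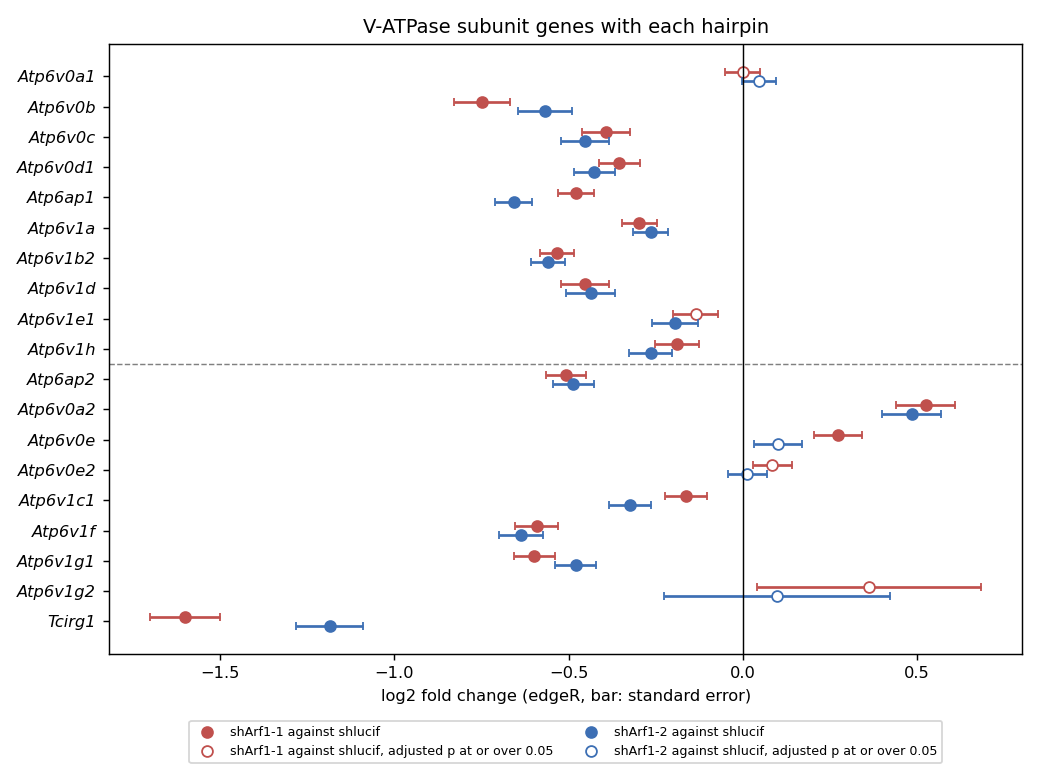
Log2 fold changes with their standard errors (x axis) for the 10 V-ATPase subunit genes, above the dashed line, and 9 further tested subunit genes, below it, with shArf1-1 (red) and shArf1-2 (blue) each against the same shlucif libraries; open circles did not pass an adjusted p of 0.05. Tcirg1 fell most (−1.60 and −1.19), Atp6v0a2 rose (0.52 and 0.48), and Atp6v0a1 stayed near 0.

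The order of the levels changed little. In shlucif cells mean FPKM ran from Atp6v0d1 (119.8 ± 8.17 SD, n = 3) through Atp6ap1 (91.4 ± 3.68), Atp6v1b2, Atp6v1a, Atp6v0a1, Atp6v0c, Atp6v0b, Atp6v1d and Atp6v1e1 to Atp6v1h, and no neighbours in this order overlapped. Atp6v0a1, which kept its level while Atp6v1a fell, stood above Atp6v1a with both Arf1 hairpins. With shArf1-1 the ranges of Atp6v0a1 and Atp6v1a overlapped, as did those of Atp6v1e1, Atp6v1d and Atp6v0b in turn. With shArf1-2 Atp6v0b overlapped with Atp6v1d, and Atp6v1d with Atp6v1e1. The summed FPKM of the 5 V1 genes divided by that of the 4 V0 genes was 0.728, 0.785 and 0.735 with shlucif, 0.732, 0.673 and 0.774 with shArf1-1, and 0.718, 0.736 and 0.735 with shArf1-2. These ranges overlapped. Over all 13 V1 and 10 V0 subunit genes listed, which adds the abundant Atp6v1f and Atp6v1g1 to V1, the ratio was 1.40 to 1.49 with shlucif, 1.16 to 1.25 with shArf1-1 and 1.23 to 1.29 with shArf1-2, with every Arf1-deficient library below every control. The ratio was not tested, and its value depends on which subunit genes are summed.

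The a-subunit genes, which encode alternative forms of the same proton-channel subunit and differ in which membrane they serve, moved in different directions. Tcirg1 encodes a3, the isoform of lysosomes and of osteoclasts, and measured 14.5, 14.1 and 12.2 FPKM with shlucif, 4.999, 5.36 and 3.73 with shArf1-1, and 6.21, 6.25 and 6.37 with shArf1-2. It fell by 61.4% (log2 fold change −1.37 ± 0.13, adjusted p = 1.7e-07) and was less reduced with shArf1-2 than with shArf1-1 (0.41 ± 0.11, adjusted p = 0.00722, or 0.26 with adjusted p = 0.0915 without shArf1-1 replicate 3). Atp6v0a2 encodes a2, found on the Golgi and endosomes, and rose from 4.49, 4.21 and 4.48 FPKM with shlucif to 6.63, 7.17 and 5.95 with shArf1-1 and 6.41, 6.71 and 6.26 with shArf1-2. The rise was 41.9% (log2 fold change 0.50 ± 0.08, adjusted p = 1.59e-05).

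The makeup of subunit a mRNA therefore differed between the groups. Of the summed FPKM of all subunit a genes, Atp6v0a1 took 69.0% ± 1.099 (SD, n = 3) with shlucif, 78.7% ± 1.66 with shArf1-1 and 77.3% ± 0.298 with shArf1-2. The share of Tcirg1 was 23.4% ± 1.44, 8.86% ± 1.19 and 11.2% ± 0.339, and that of Atp6v0a2 was 7.59% ± 0.388, 12.5% ± 0.519 and 11.5% ± 0.223. For each of these 3 genes the control and Arf1-deficient libraries did not overlap. The fourth gene, Atp6v0a4 of kidney and inner ear, had 0 to 3 counts per library. Tcirg1 is also strongly expressed by macrophages and osteoclasts, and its fall went along with the macrophage sums given above. It kept 268 to 419 counts in every Arf1-deficient library, where the 19 macrophage genes other than Tmem119 together had 14 to 29. The part of macrophage transcripts in its fall was not tested.

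**Figure D4:**
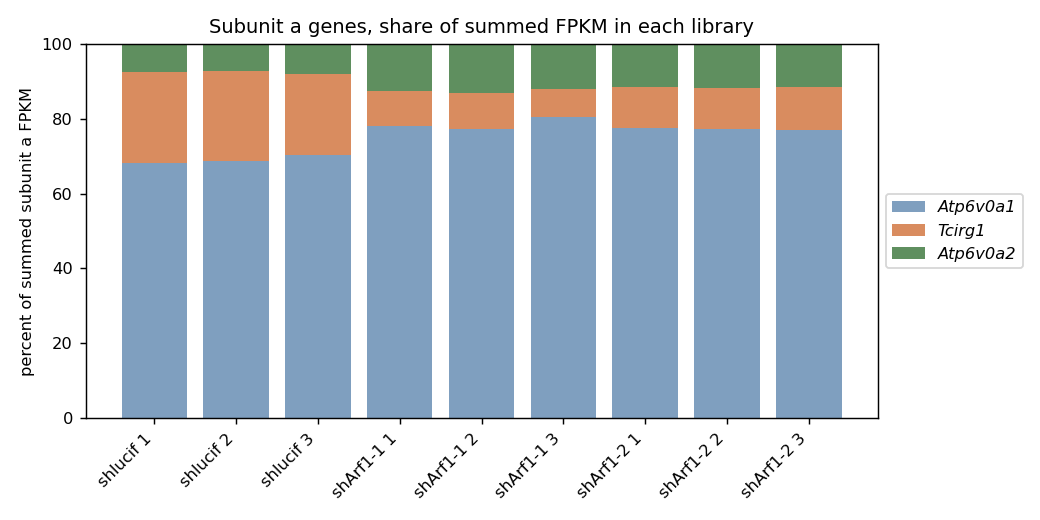
Share of the summed subunit a FPKM (y axis, percent) taken by Atp6v0a1, Tcirg1 and Atp6v0a2 in each of the 9 libraries (x axis); Atp6v0a4, under 0.1% everywhere, is not drawn. The Tcirg1 band was 21.8% to 24.3% in the control libraries and 7.50% to 11.6% in the others.

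Of the 16 further subunit genes listed, 9 were tested, of which 5 were lower and 2 higher, beside 32.9% and 31.6% over all tested genes, with a median log2 fold change of −0.24. Besides Tcirg1, those lower were Atp6v1f, subunit F of the central rotor, Atp6v1g1, subunit G of the peripheral stalk, Atp6ap2, the accessory subunit known as the prorenin receptor, and Atp6v1c1, subunit C that clamps the peripheral stalks. Their log2 fold changes were −0.61 ± 0.06 for Atp6v1f, −0.54 ± 0.06 for Atp6v1g1, −0.50 ± 0.05 for Atp6ap2 and −0.24 ± 0.06 for Atp6v1c1. Both accessory genes thus fell, Atp6ap2 from 67.2 to 70.2 FPKM in the controls to 46.5 to 54.0 in the Arf1-deficient libraries.

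The small e subunit genes of V0 were also not among those that fell. Atp6v0e was 0.19 ± 0.08 higher (adjusted p = 0.0327), passing with shArf1-1 (0.27 ± 0.07) and not with shArf1-2 (0.10 ± 0.07, adjusted p = 0.202), and the call in the pooled comparison did not hold in 5 of the 9 settings that leave out 1 library (adjusted p up to 0.121, without shlucif replicate 2). Its neuron-enriched paralog Atp6v0e2 did not pass (0.05 ± 0.05, adjusted p = 0.433), although with limma on log2(FPKM + 1) it did (0.11, adjusted p = 0.0408), and Atp6v0e with shArf1-2 passed with library totals (0.17, adjusted p = 0.0267). Atp6v1g2, the neuronal G isoform, had 19 to 37 counts per library and did not pass either (0.23 ± 0.28, adjusted p = 0.472).

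The counts of isoforms known from other tissues were at or near 0, as were those of Rnasek, a factor associated with the pump and not an isoform. Exon bases shared with other genes were not examined for these genes, so low counts need not mean low expression. Atp6v0d2, the d isoform of osteoclasts and macrophages, had 3, 18 and 7 counts in the shlucif libraries and 0 in all 6 others. Counts per library were 0 to 8 for Atp6v1b1 and 0 to 6 for Atp6v1c2, 0 to 2 for Atp6v1e2, 1 to 6 for Rnasek and 0 throughout for Atp6v1g3. None of these was tested, and Atp6v1b2, Atp6v0d1 and Atp6v1e1 took at least 99.26% of the summed FPKM of subunits B, d and E in every library.

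Among 12 listed genes that build or regulate the pump, 11 were tested. Of these 6 were higher and 1, Tmem9, was lower (−0.19 ± 0.06), beside 31.6% and 32.9% over all tested genes, with a median of 0.28. With shArf1-1 the median was 0.29 (6 higher and 1 lower, beside 33.1% and 34.4% over all tested genes). With shArf1-2 it was only 0.07 (5 higher and 2 lower, beside 30.9% and 32.6%). Dmxl1, Dmxl2 and Wdr7 belong to the rabconnectin or RAVE complex that joins V1 to V0. Dmxl1 rose by 0.53 ± 0.08 (adjusted p = 1.05e-05), Wdr7 by 0.50 ± 0.08 (adjusted p = 1.07e-05) and Dmxl2 by 0.33 ± 0.06 (adjusted p = 0.000165). Ccdc115, which assists V0 assembly in the endoplasmic reticulum, rose by 0.52 ± 0.10 (adjusted p = 0.000215). For these 4 genes all 6 Arf1-deficient libraries were above all controls. The share of all tested genes with that pattern was not counted, so it is not known how common the pattern was.

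A further pair of assembly genes was picked after their values were seen, namely Vma21, an assembly chaperone of V0 in the endoplasmic reticulum (0.48 ± 0.10, adjusted p = 0.000219), and Ncoa7, a TLDc-domain protein that binds the pump. Ncoa7 was 0.28 ± 0.12 higher (adjusted p = 0.0491, and up to 0.162 without shlucif replicate 2), at 0.47 ± 0.09 with shArf1-1 and 0.07 ± 0.09 with shArf1-2 against the same controls. Between the hairpins, Ncoa7 (−0.40 ± 0.09), Ccdc115 (−0.30 ± 0.09) and Tm9sf4, a partner of the pump (−0.19 ± 0.06), were lower with shArf1-2. The call of Ccdc115 did not hold without shArf1-1 replicate 1 (adjusted p = 0.103) or shArf1-2 replicate 1 (adjusted p = 0.074), and that of Tm9sf4 did not hold in 4 of the settings that leave out 1 library of shArf1-1 or shArf1-2 (up to adjusted p = 0.106).

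The pump was then set beside the rest of the lysosome. Of 25 listed lysosome genes 22 were lower and none higher, beside 32.9% and 31.6% over all tested genes. Their median log2 fold change was −0.78, against −0.41 for the V-ATPase genes. The cysteine proteases Ctsl and Ctsb had log2 fold changes of −2.07 ± 0.05 and −1.86 ± 0.05, progranulin (Grn) of −1.56 ± 0.06 and the cholesterol-binding Npc2 of −1.22 ± 0.05. Many of these genes are also abundant in macrophages, whose markers fell as given above. The part of macrophage transcripts in the falls of the lysosome genes was not tested.

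**Figure D5:**
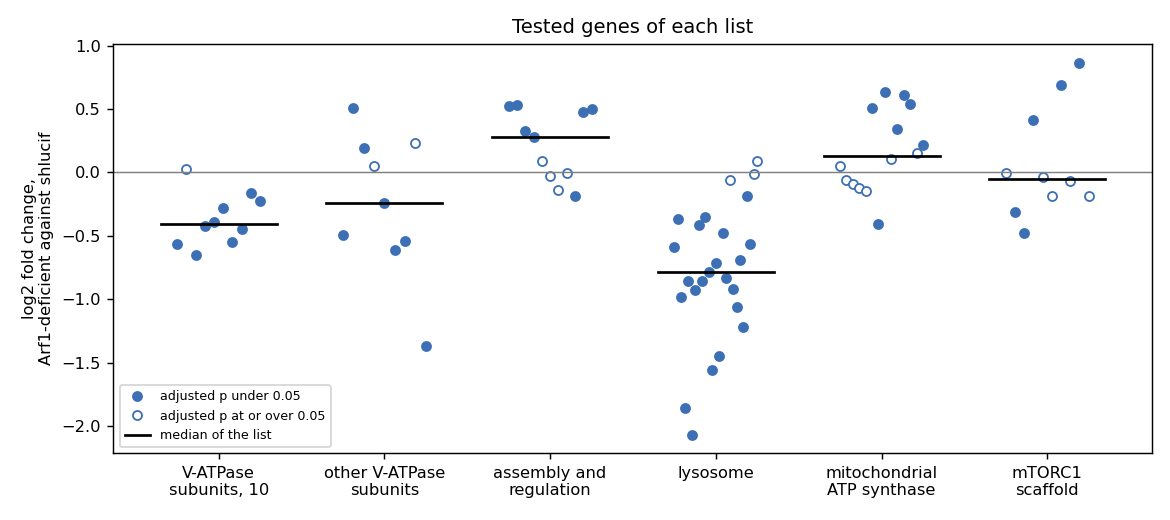
Log2 fold change of Arf1-deficient against shlucif cells (y axis) for each tested gene of 6 lists (x axis), with filled points at an adjusted p under 0.05 and a line at the list's median. The medians were −0.41 for the 10 V-ATPase subunits, −0.24 for the other subunits, 0.28 for assembly and regulation, −0.78 for the lysosome, 0.13 for mitochondrial ATP synthase and −0.05 for the mTORC1 scaffold.

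The mitochondrial ATP synthase, which runs the same rotary principle in reverse to make ATP, served as a second pump. Of its 14 tested genes 6 were higher and 1 lower, beside 31.6% and 32.9% over all tested genes, with a median of 0.13. The proteolipid genes of its ring did not move together, since Atp5g3 (0.63 ± 0.06) and Atp5g1 (0.51 ± 0.06) were higher and Atp5g2 was lower (−0.40 ± 0.06), and the membrane subunit gene Atp5j2 was higher (0.61 ± 0.06).

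The mTORC1 scaffold of Ragulator and Rag GTPases, which docks on the lysosome beside the pump, had calls in both directions. Of 10 genes 3 were higher and 2 lower, beside 31.6% and 32.9% over all tested genes. Rragd (0.87 ± 0.05) and Rragb (0.69 ± 0.08) were higher, and Lamtor3 (−0.48 ± 0.08) and Lamtor2 (−0.31 ± 0.06) were lower.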

How the data were processed

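RNA-seq libraries of N2a cells (3 each of shlucif, shArf1-1 and shArf1-2) were prepared by oligo(dT) enrichment per the labels. The authors deposited whole-number read counts per gene, without normalization, and FPKM values, which equal the count over gene length and library total within 0.1%. The submitters' processing notes name mm10. Aligner, counting tool and use of strand are not given in the sources used here. Columns were matched to samples by the titles; those headed shArf2 were taken as hairpin shArf1-2, since no title names an Arf2 sample. Because the coordinates in the table are not those of GRCm38, positions came from GENCODE M21 by identifier, and 8 broken lines were left out.

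Counts were filtered by filterByExpr, scaled by TMM (factors 0.962 to 1.03) and tested with edgeR 4.0.16 (glmQLFit robust, glmQLFTest, two-sided) in R 4.3.3, with Benjamini-Hochberg adjustment over 12448 genes and a threshold of 0.05. The 2-group fit gave Arf1-deficient against shlucif and a 3-group fit the hairpin comparisons. The scripts were tested on simulated data. Alternatives used DESeq2 1.42.0, limma 3.58.1 on log2(FPKM + 1), other scalings and filters. Precision is limited by 3 libraries per group and by counts per gene. The V-ATPase genes and all lists were chosen with earlier results of these data known. All 10 genes and other subunits are named, and of the assembly, lysosome, ATP synthase and mTORC1 lists up to 4 genes with the lowest adjusted p. Vma21, Ncoa7, Tmem9, Tm9sf4 and the cell type markers were named after their values were seen. Atp5o, on several rows, was left out.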

Additional observations from a re-analysis of the deposited data

Results flagged for a closer look

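Atp6ap1 differed between the hairpins: it was lower with shArf1-2 than with shArf1-1, at a log2 fold change of −0.18 ± 0.05 (SE; adjusted p = 0.0184, edgeR's quasi-likelihood test of the difference itself), and lower in all 3 shArf1-2 libraries than in any shArf1-1 library. Across the other settings that keep every library it stayed between −0.18 and −0.16 with adjusted p from 0.0139 to 0.0309. With 1 library left out in turn it lay between −0.202 and −0.164. It did not pass the threshold in 3 of these 9 fits (adjusted p up to 0.0889). Over all tested genes, 7.46% were called lower and 6.98% higher between the hairpins. Arf1 itself differed between the hairpins in the opposite direction (0.34 ± 0.05). With 3 libraries per group, single libraries were not screened for outlying values.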

How the results depend on the processing

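The count of V-ATPase genes lower in Arf1-deficient cells was 8 to 9 under all alternatives, 7 to 9 with shArf1-1 and 8 to 9 with shArf1-2, where library totals and log2(FPKM + 1) also called Atp6v0a1 higher. Between the hairpins the count was 1, and 0 to 1 when libraries were left out in turn, while the calls over all genes, 1798, ranged from 1159 (without shArf1-1 replicate 1) to 1977. With the replicate block the counts were 9, 8, 9 and 1, and over all genes 7808, 8431, 7939 and 1809. Same-numbered libraries did not deviate together (r from −0.0822 to 0.0941 over 9 pairs), so the values showed no pairing by number. Whether same-numbered libraries were prepared together cannot be told from this. Values at 0 changed sign: Atp6v0a1 with shArf1-1 was −0.013 with DESeq2, −0.012 with relative log expression scaling, −0.013 with at least 10 counts in every library, and −0.026 to 0.029 with libraries left out. Between the hairpins, leaving out libraries moved Atp6v0c between −0.112 and 0.025 and Atp6v1d between −0.073 and 0.088, none passing the threshold. Atp6v1h with shArf1-1 did not pass with library totals (adjusted p = 0.0569) or log2(FPKM + 1) (adjusted p = 0.0937). The same alternatives were run on the other named genes and lists after seeing the data, and no direction changed. Ncoa7 in Arf1-deficient cells failed the threshold in 10 of 17. A minimum of 10 counts in every library left 1 of the macrophage genes, Tmem119, to be tested, and the fibroblast genes called lower were 0 under it and 2 with no filter, against 1. The causes were not tested. Library totals in place of TMM moved the median of all genes by 0.07. Depth limits the untested isoforms.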
